A study of Mus musculus with 36 samples.

Results

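Mouse sperm DNA was profiled for 2 kinds of single-nucleotide damage, single-strand breaks (SSBs) and apurinic/apyrimidinic (AP) sites, and the genomic distribution of one was set against that of the other. The comparison used 4 of the 36 samples of the series, namely 2 SSB libraries and 2 AP libraries, all of them made from sperm. A further 20 libraries were SSB and AP profiles of bone marrow, brain, heart, liver and peripheral blood mononuclear cells (PBMCs), from 2 animals per tissue. They served only to ask where the SSB to AP difference of sperm departed from that of other tissues. All libraries came from male C57BL/6J mice of 24 months, for which the labels give no treatment. The sperm were motile spermatozoa from the tail of the epididymis, collected from the upper layer of the medium, and their DNA was isolated with another kit than that of the other tissues. The labels state that the SSB and the AP library of a given number came from 1 sample, so animal 1 and animal 2 each gave a matched pair. The libraries were genomic DNA and hold no marker by which the purity of the sperm could be checked.

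An SSB is an interruption of the sugar-phosphate backbone in one strand of the helix; it arises by oxidation, by failed topoisomerase reactions, and as an intermediate of repair. An AP site is a nucleotide that has lost its base, either spontaneously, which is most frequent for purines, or by the action of a DNA glycosylase, and in base excision repair the AP endonuclease turns it into a break. Mature sperm are haploid, have replaced most of their histones by protamines, and are transcriptionally silent with little capacity for repair. In SSiNGLe and SSiNGLe-AP, the assays used, the 3′ end at the break or at the AP site is tagged and sequenced, so every lesion is listed as 1 nucleotide with a strand.

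The SSB libraries held 374964 and 278646 positions in animals 1 and 2, of which 369687 and 274551 were autosomal. The AP libraries were deeper, with 963258 and 621382 positions, of which 946961 and 609798 were autosomal. Each position was counted once. Between 0.447% and 0.827% of the positions of a sperm library had a count above 1. The SSB libraries had 267 autosomal positions in common (0.0722% and 0.0972% of each), the AP libraries 2336 (0.247% and 0.383%), and an SSB and an AP library between 202 and 404, so that no library was a copy of another. At this depth a tested gene held a median of 8 and 6 SSBs and of 22 and 13 AP sites, whereas a window of 1 Mb held 157 and 117 SSBs and 392 and 260 AP sites. Single genes could thus be compared only coarsely, with a median standard error (SE) of 0.48 on the log2 scale, against 0.13 for 1 Mb windows.

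The bases at which lesions were listed separated the assays in both animals, with purines in excess among AP sites and pyrimidines among SSBs. The sequence around a lesion could be read in 27801 non-overlapping autosomal promoter windows (RefSeq, GRCm38.p6; 250 bases before to 50 bases after a gene start), which contained 2431 and 1788 SSBs and 6565 and 3680 AP sites. The sites below are those that recurred in both animals at exactly the same nucleotide and strand. They are written 5′ to 3′ on the strand of the lesion, with 10 bases on each side. There was 1 such nucleotide among the SSBs, upstream of Trim30c, a member of the tripartite motif family, and its capitals mark the listed nucleotide and the base before it:
Trim30c (chr7:104400783-104400803, minus strand): actttgctcCTctccatgatt
There were 12 among the AP sites, and none of the 13 in all occurred in sperm in the other assay. The 7 at protein-coding genes are given next, with capitals at the listed nucleotide and at the second base before it:
Mcm6 (chr1:128359733-128359753, minus strand): gtttggcgCgAagtagctcag
Gpr141b (chr13:19733135-19733155, minus strand): aaggttgcCcGtaaaccatgg
Prm3 (chr16:10790919-10790939, minus strand): ctcgctacCcAggctgcctcc
Cstf2t (chr19:31082777-31082797, minus strand): ccggcgtcCcGcccccgcttc
Cyp2c37 (chr19:39992399-39992419, plus strand): acctgcccCcAatcacaactg
Lce3c (chr3:92944321-92944341, plus strand): cacatttcCcAggttccatgc
Ccng2 (chr5:93267531-93267551, minus strand): gcgacgccCcCaaggggcggg
All 7 AP sites had cytosine at the second base before the lesion, and 6 of the 7 had a purine at the lesion itself; of all 12, 10 had that cytosine and 10 a purine at the lesion. Mcm6 encodes a subunit of the replicative helicase, Prm3 belongs to the protamine gene cluster, and Ccng2 encodes a cyclin. A further 3 of the 12 lay at Gm33862, at chr11:3136928-3136948, chr11:3136974-3136994 and chr11:3137027-3137047, inside the span of Sfi1, which is described again among the genes.

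The same bases stood out over all lesions in promoter windows. At the listed nucleotide, SSBs were found at adenine in 7.20% and 6.99% of cases in the 2 animals, and AP sites in 38.9% and 36.2%, against 23.3% for adenine over the promoters as a whole. Thymine showed the reverse, with 24.1% and 27.7% for SSBs and 8.88% and 12.01% for AP sites. Cytosine, too, was more frequent among SSBs (37.8% and 37.0%) than among AP sites (15.7% and 16.9%), with 26.7% over the promoters. Guanine was closer, at 30.8% and 28.3% of SSBs and 36.5% and 34.9% of AP sites. Thus the AP lists were purine-rich at the lesion and the SSB lists were depleted of adenine, in both animals, with no overlap between the assays at any of the 4 bases. A strong preference for cytosine preceded both kinds of lesion but at a different distance. For SSBs it was highest at the base just before the lesion (53.1% and 52.3%, against 41.4% and 38.9% for AP sites). For AP sites it was highest at the second base before (52.0% and 53.2%, against 40.2% and 40.1% for SSBs), where adenine fell to 3.63% and 4.89%. Beyond the lesion, guanine at the fourth base after it was less frequent among SSBs (23.8% and 24.9%) than among AP sites (30.7% and 29.1%). That difference was not general to the assays. In the other tissues guanine there ranged from 22.1 to 31.98% of SSBs (median 29.4%) and from 28.7 to 30.4% of AP sites (median 29.5%). These preferences are properties of the lists as deposited, and the parts of the lesion, the tagging reaction and the alignment in them were not tested.

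**Figure D1:**
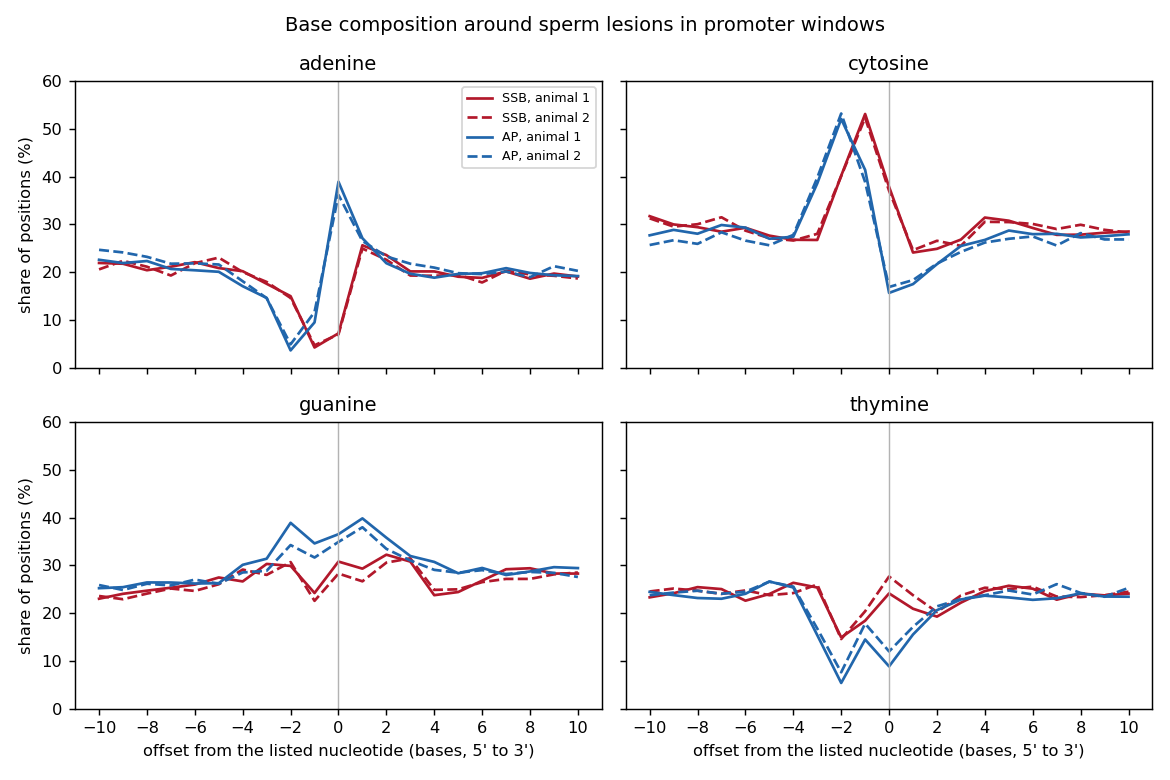
Percentage of lesions in promoter windows (vertical axis) with each of the 4 bases at each offset in bases from the listed nucleotide (horizontal axis, negative before it), for the 4 sperm libraries. At the listed nucleotide adenine stands at 7.20% and 6.99% of SSBs and 38.9% and 36.2% of AP sites, and the cytosine peak lies just before the lesion for SSBs and 1 base further away for AP sites.

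Read as pairs of the base before the lesion and the lesion itself, SSBs occurred at CC 2.59 and 2.49 times as often as that pair occurs in promoters, at CG 2.73 and 2.39 times, and at CT 1.96 and 2.30 times. The pair AA was nearly absent, at 0.013 and 0.035 times its frequency. AP sites occurred most in excess at CA (3.11 and 2.87 times) and CG (2.61 and 2.12 times), and both assays thereby shared the excess at CG. The bases of the sperm lists were close to those of the other tissues. Adenine at the lesion was 36.2 to 41.7% in the other AP libraries and 4.55 to 6.68% in the other SSB libraries, just below the sperm SSB values. The base after the lesion separated sperm from the other SSB lists: thymine took 20.9% and 23.8% of sperm SSBs and 11.98 to 18.5% of the others, and cytosine 24.1% and 24.6% against 27.1 to 30.1%.

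On the scale of 100 kb, the 2 kinds of lesion followed much the same landscape. After thinning every library to 274551 positions, the Spearman correlation over 23253 windows was 0.668 between the SSB libraries of the 2 animals, 0.724 between their AP libraries, and 0.665 to 0.697 between an SSB and an AP library. These are descriptions only, since all the libraries share the mappability and base composition of the windows. An SSB list of sperm thus resembled an AP list of sperm as much as it resembled the SSB list of the other animal.

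Around gene starts, both kinds of lesion were denser than on the autosomes at large, and to a like extent. The density within 1 kb of the start of protein-coding genes, relative to that of all autosomes, was 1.88 and 1.86 for SSBs and 1.94 and 1.66 for AP sites (mean ± SD 1.87 ± 0.010 and 1.80 ± 0.20, n = 2 each). The AP library of animal 1 lay above both SSB libraries and that of animal 2 below both, so that the log2 ratio of SSBs to AP sites was −0.05 in animal 1 and 0.17 in animal 2. Relative to the sequence 50 to 100 kb away from the starts in place of all autosomes, SSBs (1.71 and 1.69) were above both AP values (1.66 and 1.49), and the ratios were 0.04 and 0.18. A two-sided exact permutation test of 2 against 2 values gave p = 1; no such test could give less than 0.333. In bins of 250 bases, the density was highest just downstream of the start in SSB library 1 (2.25) and in both AP libraries (2.48 and 1.99), and in the next bin in SSB library 2 (2.27). Bone marrow differed, with SSB peaks of 5.55 and 4.56 just upstream of the start.

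**Figure D2:**
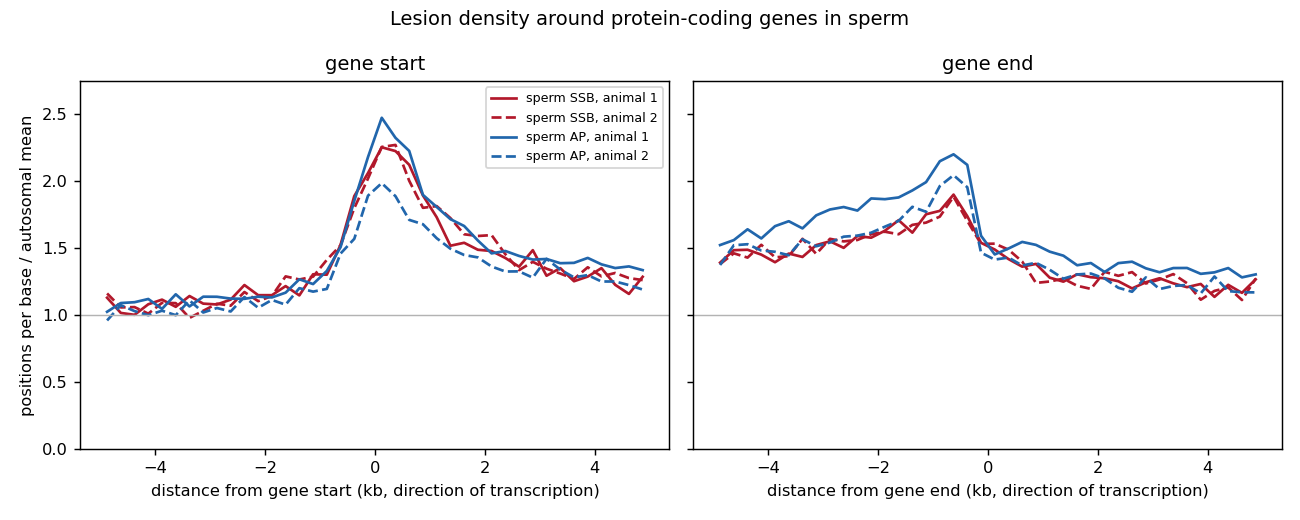
Density of positions relative to the autosomal mean (vertical axis) in bins of 250 bases by distance in kb from the start (left) or the end (right) of protein-coding genes (horizontal axis, in the direction of transcription), with 1 line for each sperm library. At starts the AP lines peak at 2.48 and 1.99 and the SSB lines at 2.25 and 2.27; at ends the SSB lines peak at 1.90 and 1.88, below the AP lines at 2.20 and 2.05.

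At gene ends the order was the same in both animals. The density within 1 kb was 1.55 and 1.53 for SSBs and 1.73 and 1.60 for AP sites (1.54 ± 0.010 and 1.67 ± 0.090, SD, n = 2 each), so SSBs were lower by 0.16 and by 0.06 on the log2 scale, and the groups did not overlap. Relative to the sequence 50 to 100 kb away the ratios were −0.07 and −0.06, and within 0.5 kb of the end −0.11 and −0.01. The peak lay inside the gene, between 750 and 501 bases before its end, in all 4 libraries, at 1.90 and 1.88 for SSBs against 2.20 and 2.05 for AP sites. The exact permutation test reached the smallest two-sided p it can give with 2 against 2, 0.333.

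Promoters were split by their base composition. In the 8633 CpG-rich promoters (GC content above 0.5 and an observed to expected CpG ratio above 0.6) the relative density was 2.37 and 2.35 for SSBs and 2.30 and 1.71 for AP sites. In the remaining 19168 promoters it was 1.91 and 1.87 for SSBs and 2.05 and 1.94 for AP sites. The sign of the difference therefore turned between the classes, SSBs being above AP sites at CpG-rich promoters (log2 ratios 0.04 and 0.46) and below them at CpG-poor ones (−0.11 and −0.05), without overlap in either class. The AP library of animal 2 supplied nearly all of the difference at CpG-rich promoters.

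Inside genes, SSBs were somewhat less frequent than AP sites. Protein-coding genes held 51.4% and 51.2% of autosomal SSBs and 53.4% and 52.0% of AP sites (51.3 ± 0.16 and 52.7 ± 1.0, SD, n = 2 each). Genes of 100 to 500 kb differed by like amounts in both animals, with 21.02% and 20.7% of SSBs and 21.7% and 21.5% of AP sites, which made log2 ratios of −0.04 and −0.05. Genes of 10 to 100 kb held 20.4% and 20.5% of SSBs; the AP value was 22.2% in animal 1 but 20.6% in animal 2, barely above the SSBs. For the longest genes, over 500 kb, SSBs (8.01% and 7.96%) were above the AP library of animal 1 (7.35%) and just below that of animal 2 (8.02%). Genes under 10 kb likewise had SSB shares (2.36% and 2.38%) between those of the AP libraries (2.67% and 2.29%). Windows of 100 kb gave the same picture when sorted by the number of gene starts in them. Those without any start held 52.8% and 52.6% of SSBs against 50.3% and 52.7% of AP sites, those with 1 or 2 held 34.6% and 34.7% against 36.0% and 34.9%, and those with 6 or more held 2.32% and 2.29% against 2.53% and 2.15%.

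Along gene density, then, the 2 SSB libraries were nearly alike and the 2 AP libraries stood apart from each other. The AP library of animal 1 carried more of its lesions in gene-rich and fewer in gene-poor sequence than that of animal 2, and the SSB libraries fell between them or beside that of animal 2. Of 14 gene-feature values computed, the groups did not overlap for 8, which is 57.1%, and with 2 libraries a side no permutation test of them could pass a threshold.

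**Figure D3:**
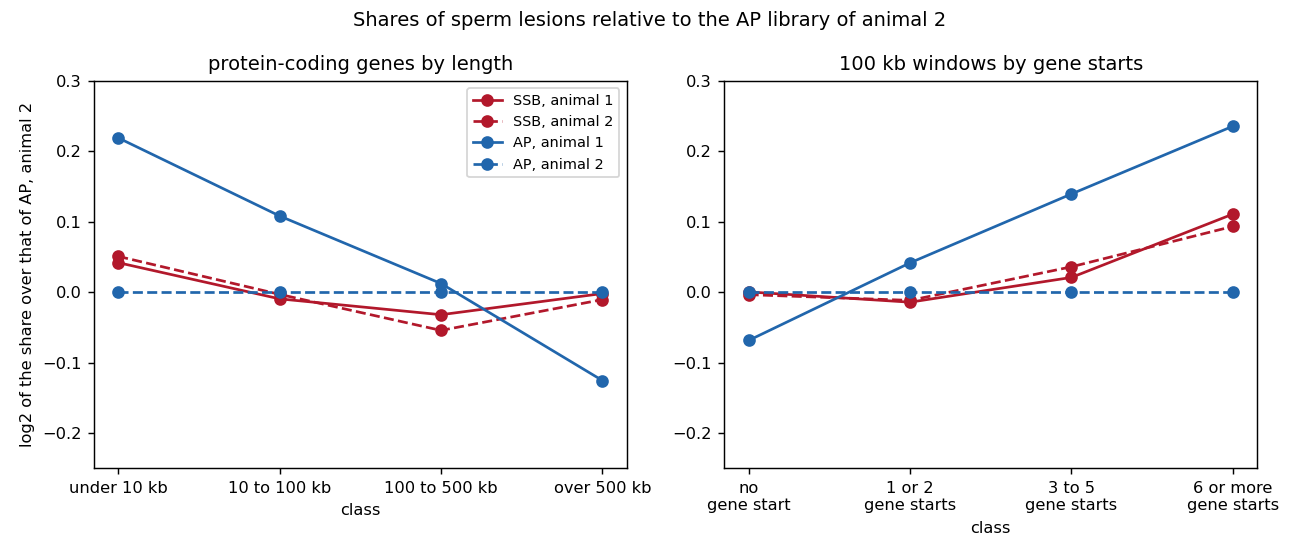
Log2 of the share of each sperm library over that of the AP library of animal 2 (vertical axis), by length class of protein-coding genes (left) and by the number of gene starts in a 100 kb window (right); the AP library of animal 2 is therefore a flat line at 0. The AP library of animal 1 leaves that line in the shortest and longest genes and in gene-rich windows, from a share of 2.67% against 2.29% in genes under 10 kb to 7.35% against 8.02% in genes over 500 kb, while the SSB libraries run together and lie below both AP libraries in genes of 100 to 500 kb.

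Inside genes, the assays differed by strand in both animals. Of the positions within protein-coding genes of known strand, and outside genes that overlap on opposite strands, the coding strand held 55.1% and 55.8% of SSBs but 51.0% and 50.8% of AP sites (55.4 ± 0.54 and 50.9 ± 0.19, SD, n = 2 each). The differences of 4.04 and 5.07 percentage points in the 2 animals exceeded the spread between replicates, though p was again 0.333 by the exact permutation test, the smallest possible. By gene length, strand was read only in protein-coding genes of known strand that overlap no other annotated gene. There the coding strand held 54.9% and 55.7% of SSBs in genes under 10 kb, 55.6% and 56.6% from 10 to 100 kb, 55.8% and 56.7% from 100 to 500 kb, and 53.1% and 53.6% over 500 kb. AP sites ran from 49.6% and 48.3% in genes under 10 kb to 51.5% and 51.8% from 100 to 500 kb and 50.7% and 52.96% over 500 kb. The difference was smallest in both animals over 500 kb and largest under 10 kb, which was not tested. Only 12 genes over 500 kb overlapped no other gene, with 1173 and 828 SSBs, so they do not stand for all genes of that length. The other tissues had the same asymmetry, with differences of 2.40 to 5.34 points, and sperm did not depart from them (two-sided exact permutation p = 0.394, 2 against 10 pairs). The strand is that of the deposited list, whose convention is not stated for the SSB and AP lists separately.

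Among single genes, 13489 had a mean of at least 10 lesions per 1000000 autosomal lesions of the library (LPM) and were tested with edgeR. Only Tmem267 rose in SSBs relative to AP sites, which is 0.00741% of the genes tested, and none fell; 903 genes (6.69%) had an unadjusted p under 0.05, and DESeq2 called none. Tmem267 encodes a transmembrane protein and spans chr13:119488086-119610459. It held 40 and 32 SSBs against 35 and 26 AP sites although the AP libraries were over 2 times as deep, which came to 108 and 117 LPM of SSBs and 37.0 and 42.6 LPM of AP sites. The log2 fold change was 1.51 (SE 0.27, edgeR quasi-likelihood test, adjusted p = 0.000333). Of its 14 bins of 10 kb, 9 had no position in any library of sperm or of the other tissues. Most of the positions lay in 2 bins beyond that stretch. The bin chr13:119590001-119600000 held 19 and 12 SSBs and 13 and 8 AP sites. The last full bin, chr13:119600001-119610000, held 17 and 19 SSBs and 14 and 13 AP sites. The parts of mappability and copy number in this excess were not tested, so the value is uncertain. The excess was not confined to sperm: SSBs were above AP sites in 12 of 12 tissue pairs, at 93.1 to 150 against 23.4 to 42.9 LPM in the other tissues. The call was lost in DESeq2 (adjusted p = 1), after thinning (edgeR adjusted p = 0.97), without positions that recur between libraries (0.055), and without either SSB library (0.90 and 0.89) or AP library 1 (0.056), while the log2 fold change stayed between 1.32 and 1.62.

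The genes closest to a call in the other direction did not pass and are given as values. Gm2427, at chr1:85496430-85514604, held 2 and 2 SSBs against 27 and 31 AP sites (log2 −2.56, SE 0.59, edgeR adjusted p = 0.0989). Cdk5rap1, which encodes a methylthiotransferase that modifies mitochondrial tRNAs and spans chr2:154222011-154373038, held 15 and 11 SSBs against 88 and 57 AP sites, or 40.6 and 40.1 against 92.9 and 93.5 LPM (−1.20, SE 0.30, adjusted p = 0.178). In the other tissues its SSBs ranged from 50.8 to 110 LPM, all above the sperm values, and its AP sites from 57.4 to 94.3. Gm40847, at chr12:18853324-19073782, had densities of 0.32 and 0.32 for SSBs and 0.82 and 0.86 for AP sites (−1.37, SE 0.34, adjusted p = 0.178).

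Their promoters show how thinly lesions were spread at this depth. The 250 bases before a RefSeq start of Tmem267 and Cdk5rap1, the named genes with most positions within 1 kb of a start (6 each), are printed on the strand of the gene (GRCm38.p6; that of Cdk5rap1 lies within the annotated span of the gene), and capitals mark nucleotides listed as a lesion on either strand in any sperm library:
Tmem267 (chr13:119487836-119488085, plus strand): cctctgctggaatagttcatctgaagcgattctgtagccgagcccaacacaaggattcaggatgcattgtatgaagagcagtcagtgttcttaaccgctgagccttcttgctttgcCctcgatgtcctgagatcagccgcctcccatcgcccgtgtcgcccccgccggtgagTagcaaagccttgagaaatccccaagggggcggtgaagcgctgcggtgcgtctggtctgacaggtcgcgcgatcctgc
Cdk5rap1 (chr2:154372720-154372969, minus strand): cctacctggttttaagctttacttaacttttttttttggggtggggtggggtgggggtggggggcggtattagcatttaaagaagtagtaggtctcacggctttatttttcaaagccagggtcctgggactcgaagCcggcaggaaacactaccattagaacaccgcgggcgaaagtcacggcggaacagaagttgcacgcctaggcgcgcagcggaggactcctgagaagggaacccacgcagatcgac
Tmem267 had 2 marked nucleotides, both from the AP library of animal 1, and Cdk5rap1 had 1, from that of animal 2. Neither had an SSB in this stretch.

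Gene groups chosen for their length or for their function in sperm and in repair were described by their members. The giant genes of common fragile sites, which are prone to breakage under replication stress, were all tested (20 of 20). None was called by edgeR, 13 had a log2 ratio above 0, and 6 had an unadjusted p under 0.05 upward and 0 downward, beside 47.8% above 0, 2.99% upward and 3.71% downward over all genes tested. Their median log2 ratio was 0.13, beside −0.02 over all genes. Genes this long hold more positions than most, and the SEs given below are smaller than the median of 0.48 over genes tested. Counts of small p in long genes are therefore not on equal terms with those over all genes. Lsamp, a cell adhesion gene of the IgLON family, had densities of 1.18 and 1.21 for SSBs and 0.87 and 0.99 for AP sites (log2 0.36, SE 0.11, edgeR adjusted p = 0.391), with SSBs above AP sites in both animals. Macrod2, a hydrolase of ADP-ribose on proteins, had 1.19 and 1.13 against 0.89 and 1.02 (0.29, SE 0.11, adjusted p = 0.579). Neuronal adhesion and guidance genes, 39 of 39 tested and with no gene in common with the former list, behaved alike: 0 were called, 31 were above 0, 12 had an unadjusted p under 0.05 upward and 0 downward, and the median was 0.13. Erbb4, a neuregulin receptor, had the smallest p among them, with 160 and 92 SSBs against 215 and 187 AP sites (0.57, SE 0.15, adjusted p = 0.199). Next came the synaptic gene Lrrtm4 (0.51, SE 0.17), the contactin gene Cntn5 (0.43, SE 0.14) and Negr1, another IgLON gene (0.39, SE 0.14), none of which passed.

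In both groups of long genes the AP library of animal 1 set the size of the difference. Summed over all members, fragile-site genes had densities of 0.9997 and 1.01 for SSBs but 0.86 and 0.98 for AP sites, and adhesion genes 1.04 and 1.04 against 0.90 and 1.02. The log2 ratio was therefore 0.21 and 0.20 for the 2 groups in animal 1 and only 0.05 and 0.03 in animal 2. Without AP library 1 the medians were 0.06 and 0.06, beside 0.03 over all genes tested. Without AP library 2 they were 0.21 and 0.30, beside −0.03 over all genes tested.

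The remaining groups lay close to the whole. Of 48 spermatogenesis and sperm genes, 24 were tested, 0 were called, 11 were above 0, and the median was −0.06; their summed density was 0.83 and 0.87 for SSBs and 0.86 and 0.89 for AP sites, below the autosomal mean in all 4 libraries. Spag16, a gene of the sperm axoneme, had densities of 0.70 and 0.83 against 0.64 and 0.67 (log2 0.21, SE 0.16), and Dnah8, an axonemal dynein heavy chain, 1.12 and 1.02 against 1.14 and 1.46 (−0.24, SE 0.22); neither passed. Developmental transcription factor genes were dense in both lesions, at 2.06 and 1.91 for SSBs and 2.03 and 1.83 for AP sites, and of the 29 of 61 tested 0 were called and the median was 0.04. Among them Ebf1, a regulator of B cell development, had 1.55 and 1.57 against 1.84 and 1.75 (−0.21, SE 0.16). Genes of single-strand break and base excision repair gave 0 calls among the 18 of 32 tested, with a median of −0.04. Top1, DNA topoisomerase I, had 1.44 and 1.59 against 1.06 and 0.87 (0.61, SE 0.36), and Tdp1, the enzyme that removes stalled topoisomerase I from DNA ends, 2.21 and 1.73 against 2.44 and 2.34 (−0.26, SE 0.28); neither passed. Among 132 of 406 Zfp zinc finger genes tested 0 were called, and the median of −0.03 was 0.001 with the size factors of DESeq2.

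Short genes of large families seldom reached the minimum for a test and are given by their sums. Ribosomal protein genes, of which 0 of 75 were tested, had densities of 2.05 and 1.85 for SSBs and 2.13 and 2.28 for AP sites, lower for SSBs in both animals. Olfactory receptor genes (3 of 1420 tested) had 1.49 and 1.49 against 1.33 and 1.43, higher for SSBs in both. Vomeronasal receptor genes (9 of 623 tested) had the lowest densities of the 9 groups, 0.40 and 0.44 for SSBs and 0.445 and 0.519 for AP sites, again lower for SSBs. Members of these families are similar to each other in sequence, so reads could be split among copies or dropped, and these sums are uncertain to that extent.

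Windows of 1 Mb gave calls in both directions, whereas none of 23253 windows of 100 kb passed in edgeR or in DESeq2 (1710, or 7.35%, had an unadjusted p under 0.05 in edgeR, and 131 in DESeq2). Of 2411 windows of 1 Mb tested, 6 were higher in SSBs (0.249%) and 2 lower (0.083%), and 342 (14.2%) had an unadjusted p under 0.05. The strongest held Foxp2, a transcription factor gene known for its part in vocal learning and speech, at chr6:15000001-16000000. It had 468 and 441 LPM of SSBs against 278 and 308 AP sites (log2 0.65, SE 0.14, edgeR adjusted p = 0.00696), and both SSB values were above the 242 to 384 LPM of SSBs in other tissues. A window within Lsamp, chr16:40000001-41000000, had 522 and 561 LPM of SSBs against 357 and 436 of AP sites (0.46, SE 0.11, adjusted p = 0.0253), and that of Ofcc1, chr13:40000001-41000000, had 601 and 579 against 446 and 431 (0.43, SE 0.11, adjusted p = 0.0253). The window of Map2, a microtubule-associated protein gene of neurons, chr1:66000001-67000000, had 463 and 477 against 264 and 418 (0.50, SE 0.13, adjusted p = 0.0346). In these 4 windows every SSB value of sperm exceeded both AP values of sperm and every SSB value of the other tissues.

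Another window that rose, chr17:39000001-40000000 with Esp38, a gene of a secreted peptide of the exocrine glands, differed from these 4. It had 541 and 608 LPM of SSBs against 486 and 325 AP sites in sperm (0.45, SE 0.11, adjusted p = 0.0253), but 474 to 1282 LPM of SSBs and 281 to 564 LPM of AP sites in other tissues. Most of it came from chr17:39800001-39900000, with 463 and 514 LPM of SSBs and 418 and 264 LPM of AP sites. That part held no protein-coding gene and had 393 to 1195 LPM of SSBs in other tissues. So many lesions in 100 kb can include reads of several copies, so that these values are uncertain. The windows that fell were those of Btbd9, chr17:30000001-31000000, with 446 and 433 LPM of SSBs against 602 and 599 LPM of AP sites (−0.45, SE 0.11, adjusted p = 0.0253), and of Afdn, which encodes the junction protein afadin, chr17:13000001-14000000, with 468 and 503 against 701 and 631 (−0.47, SE 0.12, adjusted p = 0.0362). In both, the sperm SSB values were below every SSB value of the other tissues.

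**Figure D4:**
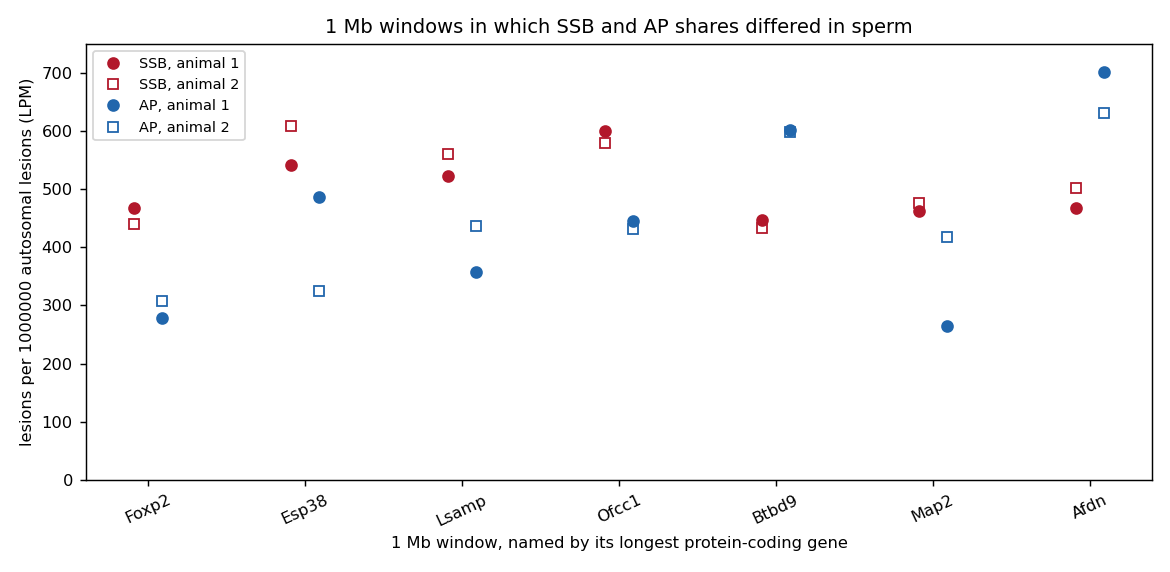
LPM (vertical axis, from 0) in 7 of the 8 windows of 1 Mb called by edgeR, each named by its longest protein-coding gene (horizontal axis), with 1 point for each sperm library. SSB points lie above both AP points in 5 windows and below both in those of Btbd9 and Afdn, and the AP points of the Esp38 window (486 and 325) and the Map2 window (264 and 418) are the most spread.

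The 8 calls depended on which library was kept. Without AP library 1 there were 11 calls, 3 of them among the 8; without AP library 2 there were 484, including 7 of the 8; and without either SSB library there were 0. With the animal as a block there were 10 calls, including all 8.

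Whether the SSB to AP difference of sperm differed from that of the other tissues was tested over all 24 libraries. Among 13830 genes, edgeR called 1 (0.00723%), Sfi1, and it fell; 953 (6.89%) had an unadjusted p under 0.05. Sfi1 encodes a centrosomal protein and spans chr11:3131850-3203347, and it was the site of recurring AP positions above. Its density was 35.5 and 34.8 times the autosomal mean in SSBs and 47.6 and 47.2 times in AP sites, far above any other gene described here. It had 1058 and 1034 LPM of SSBs and 1415 and 1404 LPM of AP sites in sperm, against 1092 to 1299 and 1037 to 1317 in the other tissues, so the sperm AP values were above and the sperm SSB values below every other library of their kind. The difference from the other tissues was −0.44 (SE 0.094, edgeR adjusted p = 0.0356). It passed in the fit with the animal as a block (adjusted p = 0.00766) and not with TMM scaling (0.187), without bone marrow (0.404), or without either SSB library or AP library 1 (0.374, 0.496 and 0.166). A density this high can hold reads of several copies, so that the value is uncertain.

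Lsamp came next in the upward direction but did not pass, with 1079 and 1107 LPM of SSBs against 797 and 905 LPM of AP sites, and 645 to 925 LPM of SSBs in other tissues (difference 0.43, SE 0.10, edgeR adjusted p = 0.102). Sorcs1, a sorting receptor gene, had 311 and 295 LPM of SSBs against 237 and 276 of AP sites (0.65, SE 0.16, adjusted p = 0.151). Scpep1, a serine carboxypeptidase gene, had 13 and 7 SSBs against 7 and 4 AP sites (2.23, SE 0.58, adjusted p = 0.209).

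In windows of 100 kb, 1 of 23245 (0.0043%) rose relative to the other tissues and 0 fell, while 1752 (7.54%) had an unadjusted p under 0.05. It lay at chr5:47400001-47500000, contained no protein-coding gene, and had 46.0 and 54.6 LPM of SSBs against 17.95 and 16.4 AP sites (17 and 15 against 17 and 10 positions), while the other tissues had 4.3 to 36.6 LPM of SSBs and 19.7 to 42.9 LPM of AP sites (difference 2.17, SE 0.44, edgeR adjusted p = 0.0213). It was lost without bone marrow (adjusted p = 0.0787) and without any 1 of the sperm libraries (0.0554 to 0.302).

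In windows of 1 Mb, 31 of 2410 rose (1.29%) and 19 fell (0.788%) relative to the other tissues, 479 (19.9%) having an unadjusted p under 0.05, and 7 of the 8 windows called within sperm were among them. The windows that rose were poor in genes, with a median of 1 gene start and 11 without any. Those that fell were rich in genes, with a median of 22 (range 6 to 62), and the median of all windows tested was 5. The window with Sorcs1, chr19:50000001-51000000, had the smallest p. It held 536 and 470 LPM of SSBs and 357 and 439 LPM of AP sites, against 269 to 404 and 363 to 429 in other tissues (difference 0.69, SE 0.13, edgeR adjusted p = 0.000367). That of Meis2, a homeobox gene, at chr2:115000001-116000000, had 571 and 568 against 446 and 444, where the other SSB libraries had 367 to 494 (0.46, SE 0.11, adjusted p = 0.014). Among those that fell, the window of Esp38 led (−0.65, SE 0.13, adjusted p = 0.00205). The gene-dense window of Crtc1, a coactivator of CREB, chr8:70000001-71000000 with 53 protein-coding genes, had 592 and 714 LPM of SSBs against 861 and 648 LPM of AP sites in sperm and 770 to 1248 LPM of SSBs in other tissues (−0.60, SE 0.14, adjusted p = 0.014). That of Nrxn2, a presynaptic adhesion gene, chr19:6000001-7000000 with 47 protein-coding genes, had 487 and 535 against 677 and 546, with 597 to 1060 LPM of SSBs elsewhere (−0.56, SE 0.13, adjusted p = 0.014). In the sperm libraries themselves the log2 ratio was above 0 in 31 of the 31 windows that rose and below 0 in 18 of the 19 that fell. The sperm ratio is part of the contrast that chose these windows, so its sign there is no separate evidence. In the windows that rose, the median ratio was 0.35 in sperm and −0.12 over the other tissues. In those that fell it was −0.31 and 0.17. The call was sensitive to single libraries: without SSB library 1, SSB library 2 and AP library 1 there were 0, 3 and 0 calls, and without AP library 2 there were 260. With the animal as a block there were 78, which included all 50. The contrast in 1 Mb windows was not refitted without bone marrow, so the part of that tissue in these calls was not tested.

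The values over gene features were likewise compared between sperm and the other tissues. Ratios were formed within each animal and tissue. The 2 ratios of sperm were compared with the 10 of the other tissues by two-sided exact permutation tests, whose smallest p is 0.0152. These pairs were not independent. The tissues may have come from the same 2 mice, and the 2 pairs of a tissue share its preparation. For sperm they also share a kit that no other tissue had. Counted by tissue, sperm is 1 value against 5, too few for such a test, so these p-values are likely too small for a difference between tissues. Of 14 values, 5 (35.7%) passed after Benjamini-Hochberg adjustment, all at an adjusted p of 0.042 by the exact permutation test. The log2 ratio of the share in protein-coding genes was −0.06 and −0.02 in sperm and −0.01 to 0.05 elsewhere. For genes of 10 to 100 kb it was −0.12 and −0.003 against 0.003 to 0.14, and for genes over 500 kb it was 0.12 and −0.01 against −0.16 to −0.04. For windows with 1 or 2 gene starts it was −0.06 and −0.01 against 0.005 to 0.06, and for CpG-poor promoters −0.11 and −0.05 against −0.03 to 0.44. In each the 2 sperm pairs lay outside the range of the 10 others, though in several the margin of animal 2 was small.

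At gene starts the sperm ratios were −0.05 and 0.17 and those of the other tissues 0.09 to 0.79, with bone marrow at 0.79 and 0.65 (exact permutation p = 0.0303, adjusted p = 0.061). At CpG-rich promoters they were 0.04 and 0.46 against 0.20 to 1.82 (p = 0.0606 by exact permutation). At gene ends they were −0.16 and −0.06 against −0.06 to 0.15 (p = 0.0455 by exact permutation, adjusted p = 0.071). The range of other tissues thus ran from PBMCs, whose ratios at gene starts (0.17 and 0.09) lay between or at those of sperm, to bone marrow.

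**Figure D5:**
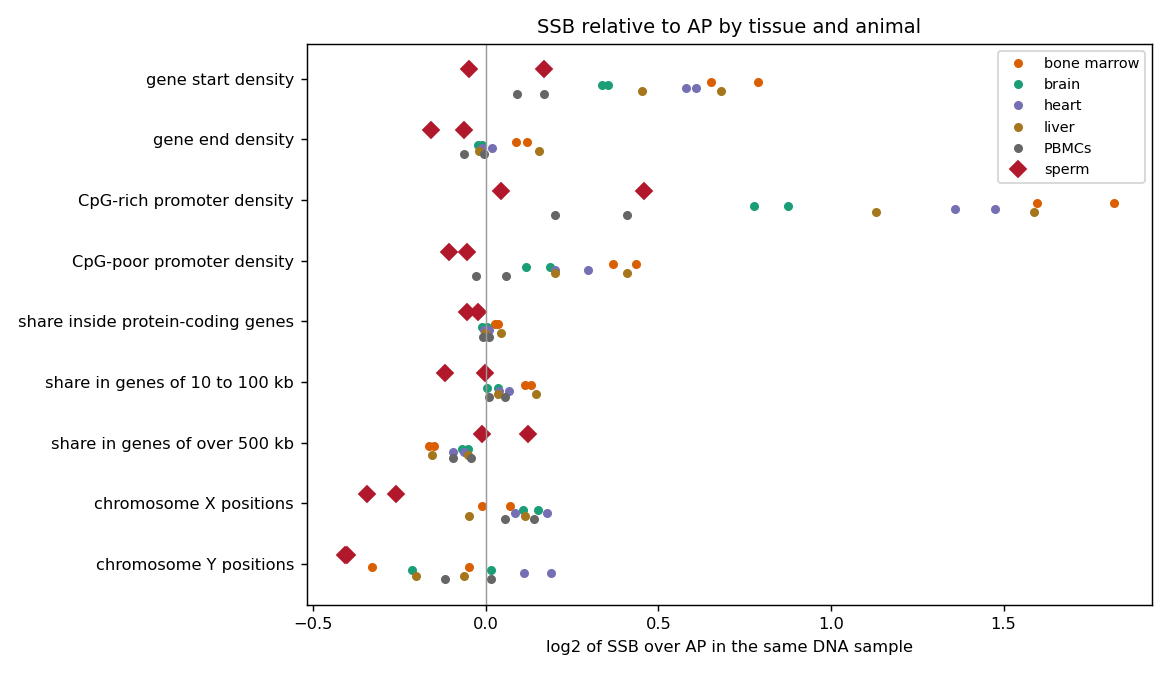
Log2 ratio of SSBs to AP sites from the same animal and tissue (horizontal axis) for gene features and the sex chromosomes (vertical axis), with 1 point for each of 2 animals in 6 tissues. The sperm diamonds lie to the left for the X chromosome (−0.26 and −0.34) and gene ends (−0.16 and −0.06), to the right for genes over 500 kb (0.12 and −0.01), and at gene starts (−0.05 and 0.17) 1 sperm point lies among those of PBMCs and the other below every other tissue.

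Over the 19 autosomes, the SSB and AP shares did not overlap for 10 (52.6%), and none differed from the other tissues after adjustment. Chromosomes 4 and 18 were those for which sperm lay outside the range of the others. On chromosome 4 the share of SSBs relative to length was 0.956 and 0.958 and that of AP sites 0.987 and 0.970, a log2 ratio of −0.05 and −0.02 against 0.01 to 0.04 in other tissues. On chromosome 18 it was 1.03 and 1.03 against 0.977 and 1.01, or 0.07 and 0.03 against −0.07 to 0.03 (adjusted p = 0.144 for both by exact permutation).

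The sex chromosomes set sperm apart. For every 100 autosomal positions there were 1.34 and 1.40 SSBs on the X chromosome and 1.61 and 1.77 AP sites (1.37 ± 0.039 and 1.69 ± 0.12, SD, n = 2 each). The log2 ratio was −0.26 and −0.34, against −0.05 to 0.18 in the other tissues (exact permutation p = 0.0152, the smallest possible, and 0.0152 after adjustment over the 2 chromosomes). As for the gene features, the 2 sperm pairs were not independent in this test. Both AP values of sperm lay within the 1.61 to 1.87 of the other AP libraries, whereas the SSB values were below the 1.59 to 1.87 of the other SSB libraries. The difference was spread along the chromosome: of the 17 bins of 10 Mb with at least 20 positions in every library, SSBs were below AP sites in 16 in animal 1 and in 17 in animal 2, with log2 ratios from −0.53 to 0.004. The last bin, at the end of the chromosome, had 11 and 11 SSBs and 23 and 17 AP sites, and its ratios were 0.29 and 0.52. On the Y chromosome there were 0.0857 and 0.0951 SSBs and 0.113 and 0.126 AP sites per 100 autosomal positions, a log2 ratio of −0.40 and −0.41 against −0.33 to 0.19 elsewhere (exact permutation p = 0.0152). The Y values rest on few, mostly repeated sequences, and the sperm SSB values were inside the 0.0845 to 0.174 of the other SSB libraries.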

How the data were processed

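SSBs and AP sites were profiled in sperm DNA of 2 mice; 20 libraries of 5 other tissues were used for contrast and RNA was not used. For each library the authors deposited a list of single-nucleotide positions with strand and the raw count of each position, without normalization or pooling. The submitters' processing notes name mm10 and GRCm38, and RSEM 1.2.28, which quantifies RNA; the aligner and filters of the lesion lists are not given in the sources used here. Groups and replicate numbers were taken from the labels.

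Each position was counted once, on either strand, in RefSeq gene spans of GRCm38.p6 (47042 autosomal genes; exons were not used here, and strand was known for 16457 protein-coding genes) and in windows of 100 kb and 1 Mb. LPM is lesions per 1000000 autosomal positions of the library; density is positions per base relative to the autosomal mean. Features with a mean of at least 10 LPM were tested with edgeR 4.0.16 (quasi-likelihood test; library size the autosomal total, no further scaling; R 4.3.3), with Benjamini-Hochberg adjustment over all features tested and a threshold of 0.05. DESeq2 1.42.0 was an alternative. SE is the log2 fold change divided by the square root of F. Values of single libraries were compared by two-sided exact permutation tests. The p-values of edgeR rest on the spread between libraries of a group, moderated over features and without an animal term in the main fits. Over 24 libraries they pool that spread over all groups of assay and tissue. Permutation p-values of 2 against 10 pairs also rest on the spread between tissues. All intervals of error cover these libraries only. The edgeR step was tested on simulated data with known changes of 1.5, 2 and 4 times between SSBs and AP sites. It recovered 4.48%, 11.9% and 50% of the changed genes. For 100 kb windows it recovered 0%, 17.9% and 90.9%, and for 1 Mb windows 83.6%, 100% and 100%. Genes and 100 kb windows without a call can therefore still differ.

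Same-numbered SSB and AP libraries came from 1 DNA sample per the labels; over 1 Mb windows their deviations from the group means had a correlation of 0.00533 in sperm and of −0.115 to 0.170 in the other tissues. The animal as a block was therefore an alternative, as were TMM scaling, other filters, summed counts, thinning to equal depth, removal of recurrent positions, DESeq2 and leaving out each library. The contrast with other tissues in 1 Mb windows, the alternatives for 1 Mb windows, the split by gene starts and by CpG content and the sex chromosomes were added after seeing the data. Members and gene lists were chosen with earlier results of these data known. Genes were named by p among protein-coding genes (up to 10 that passed in each direction, 5 for the contrast with other tissues, or the 3 of smallest p where none passed), windows by p, and list members by number of positions or an unadjusted p under 0.05. Sequence context was read only in promoter windows. Of the 8 windows of 1 Mb called within sperm, 1 is not reported here.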

Additional observations from a re-analysis of the deposited data

Results flagged for a closer look

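All of the following are differences between the log2 ratio of SSBs to AP sites in sperm and its mean in the other 5 tissues that passed a test of the difference itself. By edgeR over all 24 libraries, Sfi1 differed by −0.44 (1 gene of 13830, 0.00723%) and the window chr5:47400001-47500000 by 2.17 (1 of 23245, 0.0043%).

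By two-sided exact permutation tests of 2 against 10 pairs, the X chromosome differed by −0.387 and the Y chromosome by −0.340, both with the sperm pairs outside the range of the other tissues. For the X chromosome this was so in 2 of 2 animals, and SSBs were below AP sites in both animals in 16 of the 17 bins of 10 Mb with at least 20 positions in every library; in the last, sparser bin they were above (log2 0.29 and 0.52).

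By the same tests the share inside protein-coding genes differed by −0.0485, the share in genes of 10 to 100 kb by −0.123, that in genes over 500 kb by 0.1503, that in windows with 1 or 2 gene starts by −0.0602, and the density at CpG-poor promoters by −0.304. In these tests, as in those of the sex chromosomes, the 2 pairs of a tissue were not independent. These 5 values overlap in the sequence they cover and are not independent of each other. Beside them stands the spread between the AP libraries of sperm, whose shares in genes over 500 kb were 7.35% and 8.02% while the SSB libraries had 8.01% and 7.96%; its part in the differences was not tested.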

How the results depend on the processing

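Over 553 recomputed values, 424 were rated the same, 46 moved, 27 stronger and 56 weaker, and among them no value that passed a test changed sign. The 50 windows of 1 Mb called against the other tissues entered only as counts, so their signs were not followed singly. Counts of calls were rated the same within 1.5 times, or if equal for list members, and stronger or weaker otherwise. Tested values were rated the same if they stayed on their side of the threshold. The direction of genes and windows that did not pass was not rated. Values without a test were rated the same if they moved by less than the spread between replicates. Values without a test changed sign in 24 cases, 18 of them list medians and 6 shares or densities that left out 1 AP library, such as gene starts (0.05, and −0.05 without AP library 2) and genes over 500 kb (0.06, and −0.006 without AP library 1). The 2 against 10 tests of gene features had 40 alternatives. In all of them the p adjusted together with the other measures' main values stayed on its side of 0.05. Relative to sequence 50 to 100 kb away, the unadjusted p by exact permutation rose from 0.0303 to 0.0606 at gene starts. At gene ends it rose from 0.0455 to 0.0909. The 2 against 10 tests of the sex chromosomes were not recomputed under other settings. The count of genes called between SSBs and AP sites was 1; it was 2 with a mean of at least 40 LPM, 3 with summed counts, 0 after thinning, without recurrent positions or with DESeq2, and 0 to 14 when 1 library was left out. For 100 kb windows it was 0, and 1 with at least 40 LPM and 3 with summed counts. In 1 Mb windows it was 8, 8 with TMM scaling (6 of them shared) and 10 with the replicate block, and 0 to 484 over all fits that left out 1 library. Against the other tissues, the count of genes was 1, with 0 by TMM scaling, 0 without bone marrow, 2 with the replicate block and 0 to 11 when 1 library was left out. The count of 100 kb windows was 1 and became 0 without bone marrow; 1 Mb windows gave 50, 47 with TMM scaling and 78 with the replicate block, and 0 to 260 over fits without 1 library. The block moved no other count of calls by over 1.5 times. The log2 ratio for genes of 100 to 500 kb ranged from −0.060 to −0.038, and called members from 0 to 3 (fragile-site genes) and 0 to 5 (adhesion genes). Where 1 library was left out, its group's lone library was assumed to vary like the other group. The cause of these changes was not tested. Medians of the gene lists moved in 36 of 103 alternatives.

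The depth of the SSB libraries limits single genes and 100 kb windows (median SE 0.48 and 0.35), and with 2 animals no test of single values within sperm can pass 0.333. Gene spans stand in for exons, and multi-copy sequence is uncertain throughout.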

Other observations

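The excess of SSBs over AP sites at Tmem267 was found in every tissue, with log2 ratios of 1.51 in sperm, 1.79 in bone marrow, 1.63 in brain, 1.89 in heart, 1.85 in liver and 1.99 in PBMCs. Sperm had the smallest of the 6, and its difference from the mean of the others was −0.33 (SE 0.29, edgeR adjusted p = 0.909).

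When each tissue was tested by itself in the fit over all 24 libraries, 1 Mb windows gave 21 calls upward and 13 downward in sperm, 84 and 47 in bone marrow, 37 and 21 in heart, 20 and 8 in liver, 3 and 2 in brain and 3 and 2 in PBMCs. The libraries of the tissues differed in depth, and these counts were not compared by a test.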
